A study of Homo sapiens with 29 samples.

Results

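PC9 AXL Y821F is a derivative of PC9, a human lung adenocarcinoma line driven by mutant EGFR, in which the tyrosine Y821 of the receptor tyrosine kinase AXL was changed to phenylalanine, a residue that cannot be phosphorylated. It was chosen by the genotype in the sample labels and makes up 3 of the 29 RNA libraries of the series: 1 of untreated cells (UT), 1 of cells given the EGFR inhibitor erlotinib (E) and 1 of cells given erlotinib and AF154, an antibody that activates AXL (EA). It was compared with the 18 libraries of 6 lines built in the same way, which carry AXL WT, Y634F, Y643F, Y698F, Y726F or Y750F and have 1 UT, 1 E and 1 EA library each. In all 7 lines, AXL was first knocked out in PC9 cells with CRISPR/Cas9, and an AXL insert was then delivered by a lentiviral vector that holds a puromycin resistance marker, so that the knockout and the vector are shared by every library compared here. Treatments lasted 24 h. Erlotinib was used at 1 µM and AF154 at 300 ng/mL in the accompanying cell assays, and no separate dose is given for the RNA dishes.

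Some limits come with these cells. By the study's account, only a minority of the cells in the transduced lines express AXL, and it proposes that each of these holds more AXL than a parental cell. In such bulk RNA fewer cells of a kind and less RNA per cell cannot be told apart. Y821F is 1 line with 1 library per treatment, and nothing in the labels says that libraries came from separate cultures, so the p-values below measure only the spread between these libraries and lines, and what belongs to the substitution and what belongs to this particular line cannot be told apart. A sum over transcripts does not read the codon, so the genotype was taken from the labels. The parental line (PAR), the knockout (KO) and the kinase-dead line (KD) entered alternative settings only, apart from AXL values given for PAR and KO.

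AXL is 1 of the TAM receptors, with TYRO3 and MERTK, and binds the ligand GAS6. Once activated it phosphorylates tyrosines in its own intracellular part, which then hold adaptor proteins and enzymes that feed the PI3K, Ras-ERK and Src pathways, and it is known as a bypass receptor that lets EGFR-mutant lung cancer cells live through EGFR inhibition. Y821 lies in the C-terminal tail, behind the kinase domain, and is known as a docking site for several partners, among them the adaptor GRB2, the p85 subunit of PI3K and phospholipase C gamma.

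The substituted codons show where Y821 sits among the residues of the comparison lines. They are given in the AXL reference sequence, read 5′ to 3′ from the plus strand of chromosome 19 (GRCh38, transcript AXL-201 of GENCODE release 29, which has 894 codons in 20 exons), as 27 bases with the tyrosine codon in capitals. The sequence of the lentiviral inserts was not used here.
Y634 (exon 16, codon at chr19:41252941-41252943): agcttcctcctcTATtcccggctcggg
Y643 (exon 17, codon at chr19:41253599-41253601): gaccagccagtgTACctgcccactcag
Y698 (exon 18, codon at chr19:41256507-41256509): tccaagaagatcTACaatggggactac
Y726 (exon 18, codon at chr19:41256591-41256593): gctgaccgtgtcTACaccagcaagagc
Y750 (exon 19, codon at chr19:41257544-41257546): ggccaaaccccaTATccgggcgtggag
Y821 (exon 20, codon at chr19:41259680-41259682): gacgaaatcctcTATgtcaacatggat
The codon of Y821 is in exon 20, the last one, whereas the other 5 lie in exons 16 to 19.

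Expression was measured in TPM, the share of a library's transcripts that belong to a gene after its length is allowed for, on a scale with the same total in every library, so that the number of reads behind a value is not known. The share of TPM from mitochondrially encoded genes was 12.8% in the Y821F UT library, where the 6 lines ranged from 11.4 to 14.2%, and 12.9% in the E library, where they ranged from 12.3 to 14.2%. In the EA library it was 17.4%, above the 12.9 to 14.4% of the 6 lines. The 6 markers of epithelial cells, the labelled cell type, summed to between 8959 and 10893 TPM in Y821F and between 8155 and 11180 TPM in the 6 lines. Markers of other cell types were low: the 7 fibroblast markers summed to 25.0 to 52.6 TPM in Y821F and 23.9 to 73.0 in the 6 lines, with 4 of the 7 under 1 TPM in all 21 libraries, the 7 haematopoietic markers to 13.7 to 39.6 and 11.02 to 43.7 with 5 of the 7 under 1 TPM, and the 5 endothelial markers to 2.83 to 7.08 and 2.27 to 10.5 with 3 of the 5 under 1 TPM.

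AXL mRNA (ENSG00000167601, chr19:41219203-41261766) was measured first, since it is the gene that was replaced. In Y821F it was 297 TPM in UT, 559 in E and 481 in EA. The lowest, median and highest of the 6 lines were 217, 323 and 428 TPM in UT, 408, 596 and 852 in E and 338, 542 and 849 in EA, with a mean of 331 ± 83.3 TPM (SD, n = 6), 624 ± 180.2 and 578 ± 196.0. WT was the lowest of the 6 lines in each treatment, and Y726F in UT and Y750F in E and EA the highest. Y821F lay within the range in each treatment, in place 5, 4 and 5 of the 7 lines counted from the highest. The KO line still had 92.4 TPM of AXL in UT and 79.3 in E, so the gene total also holds RNA of the edited locus.

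Across treatments, the log2 difference of AXL between Y821F and the 6 lines was -0.14 ± 0.23 (SE), with a 95% interval from -0.61 to 0.33 (limma, adjusted p = 0.959). In Y821F, AXL was higher by 0.91 on the log2 scale in E than in UT, where the 6 lines ranged from 0.76 to 1.01. Between E and EA it differed by -0.21, where the 6 lines ranged from -0.27 to -0.0046. In PAR, whose AXL is endogenous, it was 351 TPM in UT and 245 in E. For transcripts of Y821F, AXL-201 was 48.2 TPM in UT and 48.5 in E, and AXL-202 103 and 155. AXL-205 was 58.5 and 160 there, and AXL-203 84.5 and 194. In KO, AXL-202 was 33.0 and 26.2, AXL-205 0.18 and 0.19 and AXL-203 12.1 and 12.6. In PAR, AXL-205 was 7.27 and 2.59 and AXL-203 16.3 and 8.55. The part of the insert in the rise from UT to E was not tested. Of the other 4 members of the TAM list, TYRO3 and GAS6 were abundant enough to be tested and MERTK and PROS1 were not. TYRO3 had a difference of 0.02 and GAS6 of -0.03, and neither passed the test.

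The first comparison asked whether the level of any gene in Y821F differed from the 6 lines on average over UT, E and EA. In Y821F, genes of the extracellular matrix and of DNA replication lay mostly lower and genes of the NRF2 antioxidant response mostly higher than the mean of the 6 lines, by small amounts, and no gene passed the test. Differences are on the scale of log2(TPM + 1), were fitted with limma over 9085 genes whose mean reached 10 TPM, and were called at a Benjamini-Hochberg adjusted p under 0.05, which 0 genes reached (0% called). The smallest adjusted p was 0.2998. An unadjusted p under 0.05 was reached by 487 genes (5.36%), 133 higher (1.46%) and 354 lower (3.9%) in Y821F. The Y821F library lay above all 6 lines in each treatment for 30 genes (0.33%) and below all 6 for 70 (0.771%). These 100 genes (1.1%) are a count within the range of the other lines taken in turn, from 47 for Y698F to 334 for Y643F.

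Laminins and other matrix proteins form the basement membrane that epithelial cells rest on. Of the 34 listed matrix genes 25 were tested, and 19 had a lower and 6 a higher level in Y821F, beside 56.8% of all genes that were lower. Their median difference was -0.13, against -0.02 over all genes, and 8 were lower with an unadjusted p under 0.05 and none higher, against the 3.9% of all genes given above. Y750F was close to Y821F in UT and E. Its mean log2 level of these genes was 6.77 in UT, 6.95 in E and 7.03 in EA, and that of Y821F 6.78, 6.94 and 6.92. The member with the largest difference was PLAU, the protease urokinase. It was 183 TPM in UT, 63.99 in E and 63.03 in EA in Y821F. The lowest, median and highest of the 6 lines were 182, 201 and 234 TPM in UT, 79.3, 82.7 and 98.8 in E and 74.7, 86.4 and 108 in EA. Y821F lay near the lowest line in UT and below all 6 lines in E and EA, with a difference of -0.36 ± 0.10 (SE; adjusted p = 0.897).

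Of the 25 matrix genes, 4 lay below all 6 lines in every treatment, and 3 of them are described here, named after their values were seen. COL5A1, a chain of type V collagen, was 49.4 TPM in UT, 127 in E and 105 in EA, where the 6 lines ranged from 58.2 to 79.1 TPM in UT, 135 to 159 in E and 118 to 145 in EA. TGFBI, a secreted adhesion protein induced by TGF-beta, was 630.2 TPM in UT, 848 in E and 898 in EA, where they ranged from 728 to 955 TPM in UT, 938 to 1225 in E and 957 to 1236 in EA. The third was SPARC, a collagen-binding matrix protein, at 165 TPM in UT, 214 in E and 200.03 in EA, where they ranged from 172 to 215 TPM in UT, 217 to 295 in E and 225 to 285 in EA. The 4 genes are 16% of the matrix list, beside the 0.771% of all genes, and none passed the test, with an adjusted p of 0.897 each. In UT, E and EA taken one at a time, 7, 12 and 10 of the 25 lay below the 6 lines (28, 48 and 40%) and 0, 2 and 1 above, while of all genes 12.1, 14.1 and 26.6% lay below and 8.67, 12.35 and 16.1% above. Genes of focal adhesions and integrins, which tie cells to the matrix, were lower in 19 of 24 with a median of -0.07, and mesenchymal transition genes in 14 of 16 with a median of -0.06. With KD and KO added to the 6 lines the first of these medians was -0.04. In UT the mean log2 level of both lists was lower in Y750F than in Y821F, 6.16 against 6.18 and 4.87 against 4.89. VIM, the intermediate filament vimentin, had a difference of -0.35 and CDH2, N-cadherin, of -0.27. COL1A1, 1 of the fibroblast markers, had a difference of -0.33. It was 24.7 to 51.0 TPM in Y821F and 22.9 to 70.9 in the 6 lines. Every other fibroblast marker stayed at or below 2.28 TPM in the 21 libraries. The part of such cells in the matrix result was not tested.

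All 30 listed genes of DNA replication were tested, and 27 had a lower level in Y821F, with a median of -0.18, the lowest of the 29 lists. Of these, 9 were lower with an unadjusted p under 0.05. The difference was not alike in the 3 treatments: the median distance of Y821F from the mean of the 6 lines was -0.01 in UT, -0.24 in E and -0.30 in EA. TYMS, thymidylate synthase, which supplies thymidine nucleotides, was 171 TPM in UT, 24.5 in E and 33.1 in EA in Y821F. The lowest, median and highest of the 6 lines were 166, 175 and 186 TPM in UT, 29.1, 35.5 and 44.4 in E and 46.4, 50.1 and 56.5 in EA. Y821F lay within their range in UT and below all of them in E and EA. RRM2, the small subunit of ribonucleotide reductase, had a difference of -0.55 ± 0.20 and CDC45, part of the replicative helicase, of -0.48 ± 0.14 (adjusted p = 0.897 for both). Without the EA library of Y821F the median of the list was -0.12, with 24 of 30 below 0 and 3 with an unadjusted p under 0.05, while the matrix median was -0.11 and the NRF2 median 0.09. MCM5, another helicase subunit, was the only member below all 6 lines in each treatment. Mitosis genes were lower in 20 of 24, with a median of -0.07 that was -0.04 with KD and KO added.

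NRF2 switches on enzymes that detoxify electrophiles and oxidants. All 24 listed genes were tested, and 20 were higher in Y821F, with a median of 0.06. Of these 6 had an unadjusted p under 0.05, against 1.46% of all genes. ALDH3A1, an aldehyde dehydrogenase, was 675 TPM in UT, 553 in E and 523 in EA in Y821F. In the 6 lines its lowest, median and highest values were 496, 519 and 545 TPM in UT, 379, 429 and 497 in E and 363, 450.3 and 499.5 in EA. Each Y821F library lay above all 6 lines, and the difference was 0.34 ± 0.09 (SE; adjusted p = 0.897). TXNRD1, thioredoxin reductase, also lay above them in each treatment, but by 0.08 only, and AKR1C1, an aldo-keto reductase, had a difference of 0.22 with overlapping values in UT and E. Against WT alone the median of the list was -0.00047, with 12 of the 24 below 0.

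In the receptor's own signalling, docking partners lay on both sides and most targets of ERK lower. Of 26 listed docking partners and adaptors of AXL, 21 were tested, and 12 were higher and 9 lower, with a median of 0.03 that was 0.0011 against WT alone. The largest differences were those of GAB1 and GAB2, scaffold adaptors that recruit PI3K and SHP2, at 0.24 and 0.21. Among 10 tested targets of ERK signalling 9 were lower, with a median of -0.12, and FOSL1, an AP-1 subunit, had -0.31 and ETV5, an ETS factor, -0.30, which was 0.11 against WT alone. The median distance of these 10 from the mean of the 6 lines was 0.02 in UT, -0.12 in E and -0.23 in EA, and without the EA library of Y821F the median difference was -0.05. Of the 5 tested ERBB receptors and ligands 4 were higher, with ERBB3, a kinase-impaired partner of EGFR, at 0.20 and EGFR at 0.13. ERBB3 in Y821F was 36.2 TPM in UT, 101 in E and 102 in EA, within the range of the 6 lines in UT (31.5 to 40.5 TPM) and above it in E (74.3 to 94.2) and EA (75.96 to 92.2). The YAP and TAZ targets had a median of 0.02 and the Hippo pathway of 0.02, and these turned to -0.01 without the E library and -0.0029 without the EA library of Y821F. In all, 20 of the 29 lists had a median below 0 and 24 a median of less than 0.1 in size, and 0 of their 512 distinct members passed the test.

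**Figure D1:**
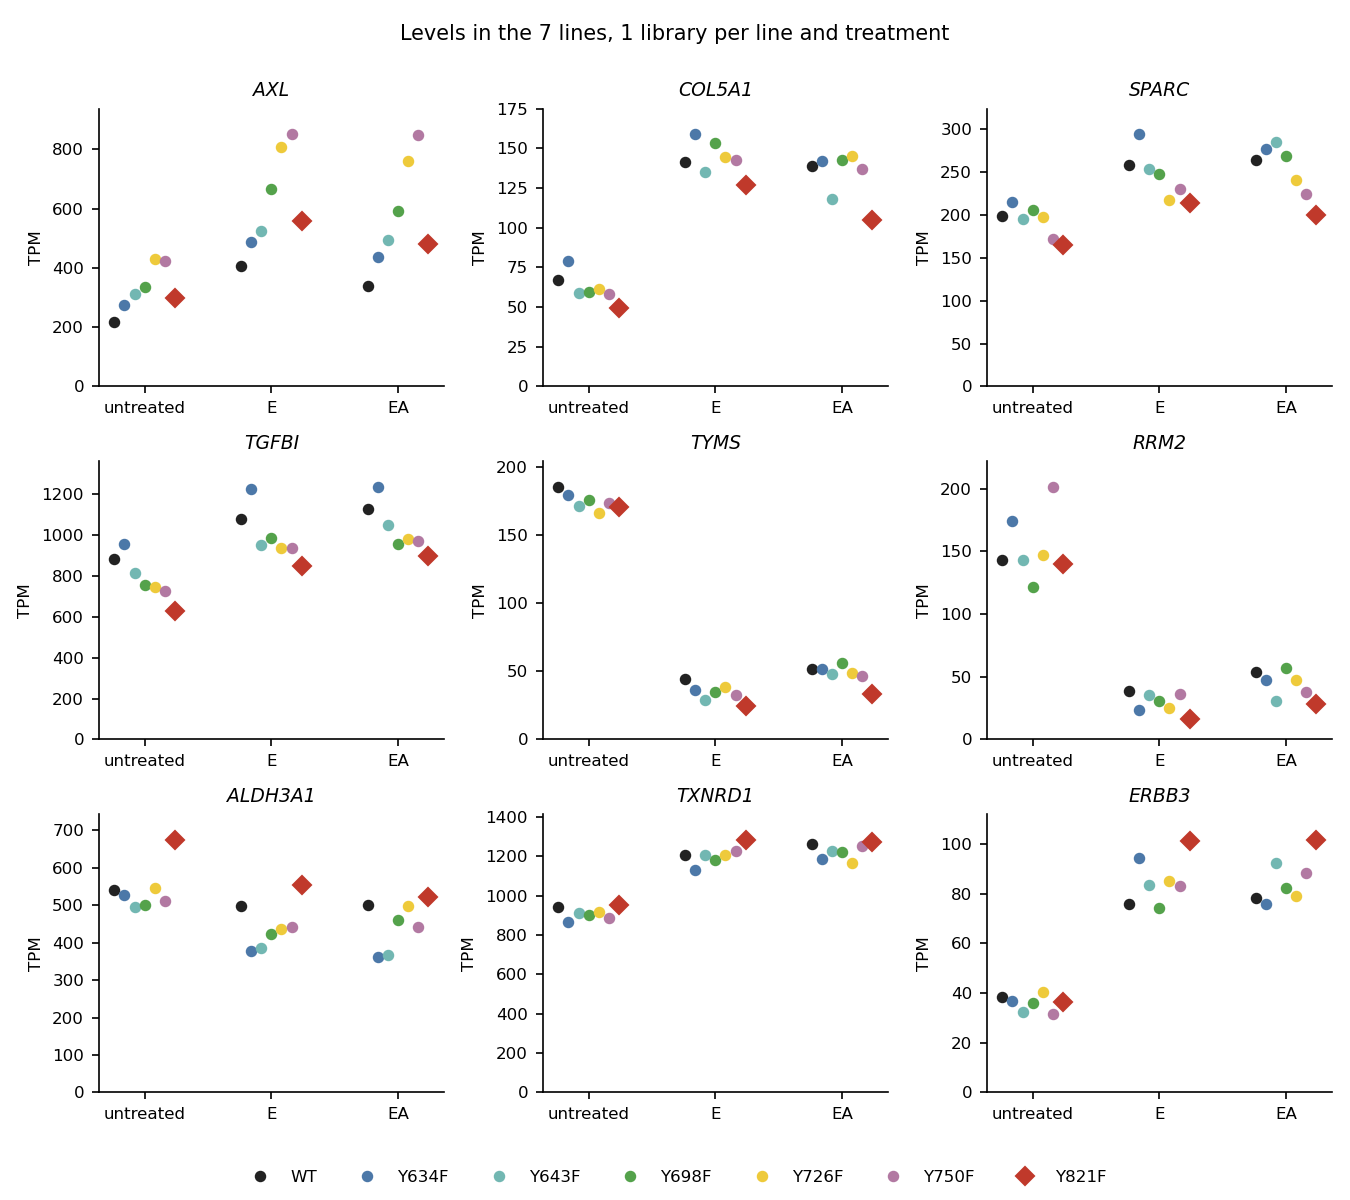
TPM (linear axis) of 9 named genes in UT, E and EA for 7 transduced lines, 1 library per point, with Y821F as the red diamond. AXL of Y821F sits among the other lines, COL5A1, SPARC and TGFBI of Y821F lie below all 6 in each treatment, and ALDH3A1 and TXNRD1 above.

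Outside the lists, genes that lay beyond all 6 lines in each treatment and are named here after their values were seen include 2 of the Notch pathway. NEURL1B, a ubiquitin ligase that acts on Notch ligands, was 7.65 TPM in UT, 18.9 in E and 16.2 in EA, where the 6 lines ranged from 9.47 to 14.7 TPM in UT, 23.4 to 34.04 in E and 21.9 to 29.7 in EA, a difference of -0.54 ± 0.13. JAG1, a Notch ligand, had -0.29. IGFBP7, a secreted binding protein of insulin-like growth factors, was 18.97 TPM in UT, 22.1 in E and 19.6 in EA, where the 6 lines ranged from 21.8 to 35.7 TPM in UT, 26.5 to 47.97 in E and 22.6 to 42.4 in EA. On the higher side, PORCN, the enzyme that attaches lipid to Wnt ligands, had 0.27, and NR0B1, an orphan nuclear receptor, 0.30, although its EA value of 102.2 TPM exceeded the highest of the 6 lines, 102.1, by little. Each of these 5 had an adjusted p of 0.897.

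The second comparison asked whether Y821F answered erlotinib as the other lines did. Its change from UT to E followed the mean change of the 6 lines closely over the 9085 genes, with a Pearson r of 0.952 across genes, where each of the 6 lines had between 0.909 and 0.945 with the mean of the remaining ones. Genes are not independent replicates, and this r is a description. Within that shared answer, genes of cholesterol and fatty acid synthesis had mostly lower changes in Y821F than in the 6 lines, and those of DNA replication lay a little lower. Only 1 gene passed the test of the difference of changes (0.011% called), the pseudogene ITGB1P1. An unadjusted p under 0.05 was reached by 327 genes (3.6%), 185 with a higher (2.04%) and 142 with a lower change (1.56%). The change of Y821F lay above all 6 lines for 1312 genes (14.4%) and below all 6 for 1111 (12.2%), in all 2423 (26.7%), where the 6 lines in turn had from 2032 to 3859. The single Y821F difference has no replicate, and the fit assumes that it varies like those of the 6 lines.

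Cells keep sterol supply in balance through SREBP factors, which switch on the genes of cholesterol synthesis when sterols run low. Of 27 listed genes of cholesterol and fatty acid synthesis 26 were tested, and 24 had a lower erlotinib change in Y821F than the mean of the 6 lines, as did 48.1% of all genes. The median difference of changes was -0.35, the lowest of the 29 lists, beside 0.01 over all genes. Of the 26, 9 were lower with an unadjusted p under 0.05 (1.56% of all genes), and 17, or 65.4%, lay below the range of the 6 lines (12.2% of all genes). The median change of the list from UT to E was -0.53 in Y821F and between -0.36 and 0.01 in the 6 lines.

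SCD, which desaturates fatty acids, was 75.9 TPM in UT, 27.8 in E and 31.7 in EA in Y821F. In the 6 lines its lowest, median and highest values were 22.6, 49.4 and 75.8 TPM in UT, 15.2, 33.03 and 36.7 in E and 17.2, 36.04 and 44.8 in EA. Y821F was the highest line in UT, by little over WT, and lay inside the range in E and EA. Its log2 change from UT to E was -1.42, where the 6 lines ranged from -1.03 to -0.46, and the difference of changes was -0.73 ± 0.23 (SE; adjusted p = 0.9995). INSIG1, which retains SREBP in the endoplasmic reticulum, had a change of -0.83 against -0.41 to 0.09.

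HMGCS1, which makes HMG-CoA for the sterol pathway, was 87.7 TPM in UT, 59.7 in E and 61.01 in EA in Y821F. The 6 lines had a lowest, median and highest value of 60.1, 72.1 and 90.3 TPM in UT, 72.6, 75.7 and 83.9 in E and 75.6, 82.3 and 85.6 in EA. The E and EA libraries of Y821F lay below all 6 lines and the UT library was under WT alone. FDFT1, squalene synthase, had a change of -0.18 in Y821F while the 6 lines had 0.10 to 0.43, so the sign was the opposite. HMGCS1 and FDFT1 were named after their values were seen, and none of the 26 passed the test, with an adjusted p of 0.9995 for each gene named.

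The UT and E libraries of Y821F lay on opposite sides of the mean of the 6 lines. In UT the mean log2 level of the list in Y821F was inside their range, a little under WT (6.019). In E it was below all 6 lines. The median change of the list was nearest to that of Y821F in WT (-0.36) and Y726F (-0.34), and the other lines had -0.11 to 0.01. Of the 26 genes, 24 lay above the mean of the 6 lines in UT, with a median distance of 0.19, and 9 (34.6%) lay above all 6, beside 8.67% of all genes. In E, 22 lay below that mean, with a median of -0.14, and 8 (30.8%) lay below all 6, beside 14.1%. In the EA library, which was not used for this change, 22 were below the mean, with a median of -0.13, and 10 (38.5%) lay below all 6, where the share of all genes was also higher, at 26.6%. Against the level test, in which the 3 treatments are averaged, the list had a median of -0.03, as the UT and the drug libraries lay on opposite sides.

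The median change of DNA replication genes from UT to E was -2.12 in Y821F and between -1.99 and -1.77 in the 6 lines. The difference of changes had a median of -0.23 over the 30 genes, 27 were below 0, and 18, or 60%, lay below the range of the 6 lines (12.2% of all genes). With KD, KO and PAR added the median was -0.12. Only 1 had an unadjusted p under 0.05, CDC45. CDC45 was 26.6 TPM in UT, 2.27 in E and 4.12 in EA in Y821F, where the 6 lines ranged from 26.3 to 32.4 TPM in UT, 3.55 to 5.997 in E and 5.12 to 7.68 in EA, and its change of -3.08 lay under their -2.69 to -1.97. RRM2 had a change of -3.04, where the 6 lines ranged from -2.83 to -1.87. The targets of ERK signalling had a median change of -2.32 in Y821F and of -2.20 to -1.85 in the 6 lines, and those of hypoxia and glycolysis -0.58 and -0.51 to -0.47. Their median differences of changes, -0.18 and -0.08, were -0.08 and -0.05 with quantile normalization.

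**Figure D2:**
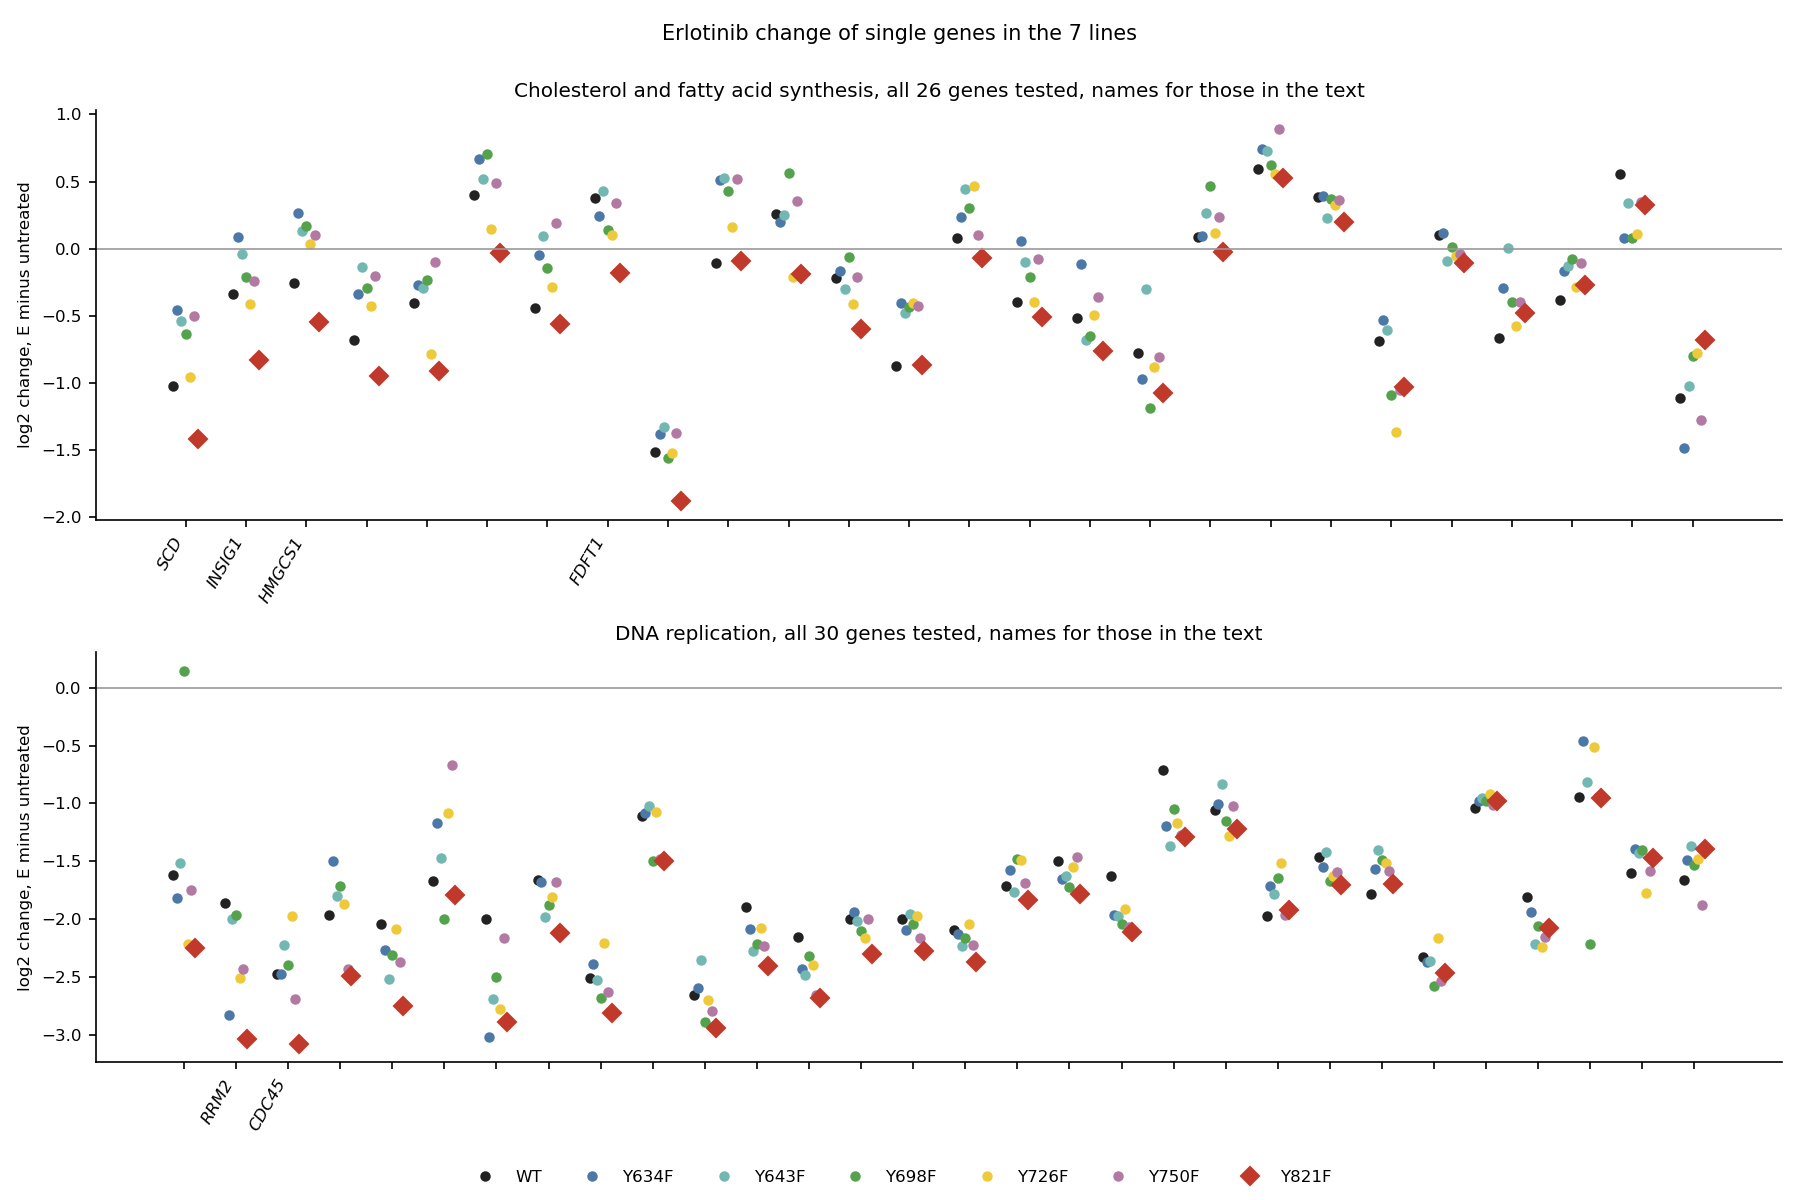
Log2 change of TPM + 1 from UT to E for all 26 tested genes of cholesterol and fatty acid synthesis and all 30 of DNA replication, 1 point per line, with Y821F as the red diamond, and with names for the genes described in the text. Y821F lies below all 6 lines for 17 of the 26 and for 18 of the 30 genes.

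Targets of YAP and TAZ, the co-activators held back by the Hippo pathway, had the highest median difference of the 29 lists, 0.16. Of the 22 tested, 17 were above 0, and 9, or 40.9%, lay above the range of the 6 lines, beside 14.4% of all genes, with none below it. The median change was 0.69 in Y821F and 0.41 to 0.56 in the 6 lines. In UT, 14 of the 22 lay below the mean of the 6 lines, with a median distance of -0.05, and in E that distance was 0.10. The mean log2 level of the list in E was 6.091 in Y821F, inside the range of the 6 lines, with Y634F at 6.093 and Y643F at 6.095. From UT to EA its median change was 0.62 in Y821F, inside the 0.32 to 0.74 of the 6 lines. ARHGEF17, a guanine nucleotide exchange factor, was 20.6 TPM in UT, 72.4 in E and 52.6 in EA in Y821F, where the 6 lines ranged from 21.4 to 28.2 TPM in UT, 44.2 to 63.8 in E and 49.1 to 63.7 in EA. It lay under all of them in UT and over all of them in E, and its change of 1.77 compared with 0.63 to 1.39 (adjusted p = 0.9995). ANKRD1, a classical YAP target, stood on the other side, with a change of -0.84, inside the range of -0.87 to 0.0023. The 18 tested genes of the Hippo pathway had a median difference of 0.03, with 4 above and 2 below the range of the 6 lines. Their median change of 0.03 lay inside the -0.09 to 0.29 of those lines. Of the Hippo kinases, LATS2 had a change of 1.31, where the 6 lines had 0.68 to 1.07.

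Among the 21 tested docking partners of AXL, the 2 largest differences had opposite signs. FYN, a Src family kinase, had a change of 1.13 in Y821F and 0.28 to 0.72 in the 6 lines. RIN1, a Ras effector, had -2.11 and -1.68 to -1.06. In the unfolded protein response, EDEM1, which sends misfolded proteins to degradation, had a change of 0.42 in Y821F and of -1.05 to -0.10 in the 6 lines. Its difference, 1.11 ± 0.29, was the largest of any list member and did not pass the test. RIN1 and EDEM1 did not reach 10 TPM in every one of the 21 libraries.

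ITGB1P1 (ENSG00000269378, minus strand, chr19:14621634-14622242) is a processed pseudogene of ITGB1, which encodes the beta 1 integrin that pairs with many matrix-binding alpha chains. It was 56.3 TPM in UT, 12.96 in E and 49.6 in EA in Y821F. In the 6 lines the lowest, median and highest values were 28.8, 42.8 and 63.8 TPM in UT, 37.5, 51.1 and 64.8 in E and 24.6, 60.9 and 86.8 in EA. The E library of Y821F lay below all 6 lines, and the UT and EA libraries lay among them. The change from UT to E was -2.04 in Y821F and -0.09 to 0.37 in the 6 lines, and the difference of -2.20 ± 0.17 (SE, 1 line against 6) passed the test (limma, adjusted p = 0.0058). The change from E to EA was 1.86, above the -1.03 to 0.79 of the 6 lines, and these comparisons share the E library. ITGB1 itself was 371 TPM in UT, 402 in E and 478 in EA, with an erlotinib change of 0.11, where the 6 lines ranged from 0.0014 to 0.30. Reads of a processed copy can be split with its parent gene, so the pseudogene's value is uncertain.

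**Figure D3:**
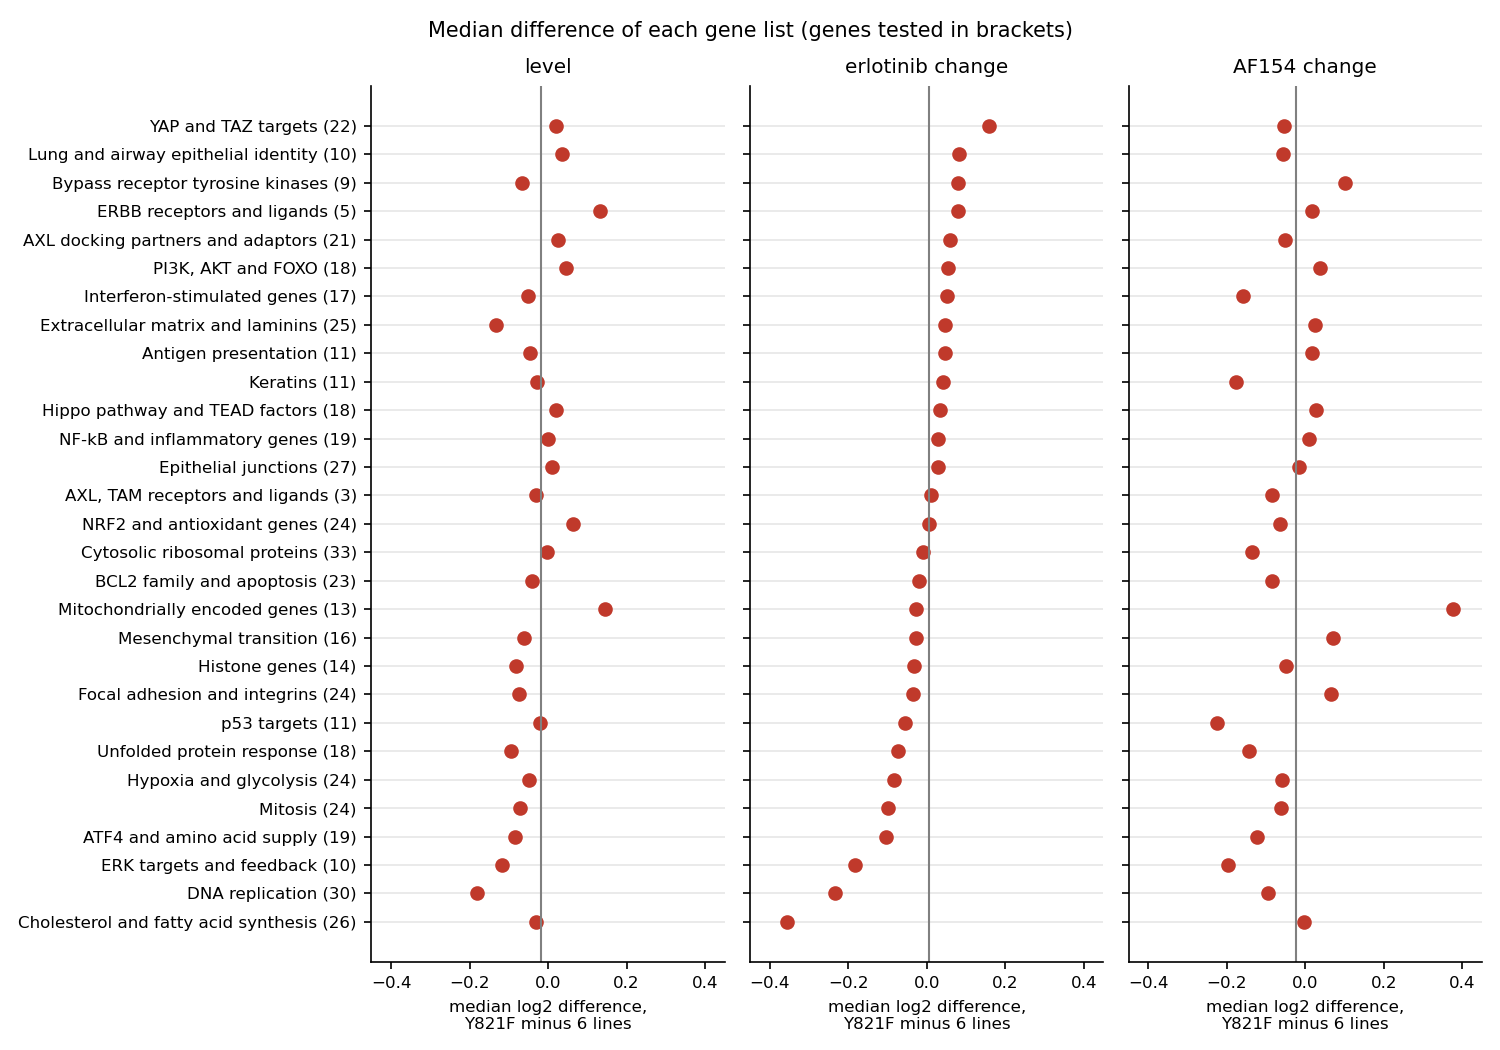
Median log2 difference between Y821F and the 6 lines for each of 29 gene lists, in the level, in the change from UT to E and in the change from E to EA, 1 dot per list, with the median of all 9085 genes as the grey line. Cholesterol and fatty acid synthesis is lowest for erlotinib (-0.35) and mitochondrially encoded genes highest for AF154 (0.38).

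The third comparison asked how Y821F answered AF154 added to erlotinib. Mitochondrially encoded genes were higher and keratin, p53 target and ribosomal protein genes mostly lower in the change from E to EA than in the 6 lines, and no gene passed the test (0% called; smallest adjusted p 0.135). An unadjusted p under 0.05 was reached by 1053 genes (11.6%), 361 higher (3.97%) and 692 lower (7.62%). The change lay above all 6 lines for 1526 genes (16.8%) and below all 6 for 2173 (23.9%), in all 3699 (40.7%), more than the 1950 to 2699 of the 6 lines in turn. The spread of the change over genes was 0.34 (SD, log2) in Y821F and 0.23 to 0.29 in the 6 lines. The split of 41.3% above and the rest below depended on the scaling: with mitochondrial genes left out before scaling, 2316 genes lay above and 1486 below (60.9% above), and with library medians centred 1958 and 1774 (52.5%).

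Besides the high mitochondrial share of the EA library, the change went with the base composition of genes. Across the 9085 genes it had a Spearman correlation of -0.559 with the GC content of the transcripts in Y821F, where the 6 lines ranged from -0.487 in WT to 0.097 in Y726F. Genes above the range of the 6 lines had a median GC content of 44.1% and a median length of 2518 bases, those below it 57.4% and 1781 bases, and all genes 50.6% and 2101 bases. The points share the 2 libraries of a line. The mitochondrial share is a measure of the EA library, and the correlation is one of the E and EA libraries together. The part of both measures in the results below was not tested. The AF154 change cannot be formed without the EA library. Among all genes, 53.8% had a lower change than the mean of the 6 lines.

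**Figure D4:**
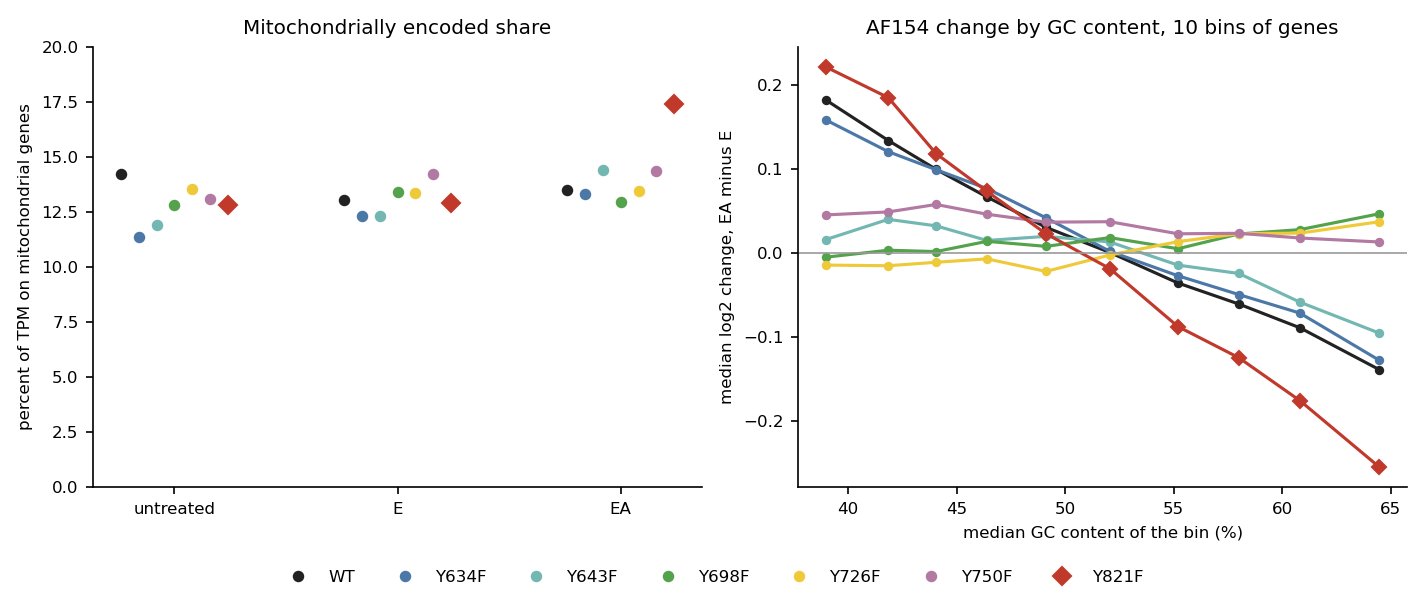
Left, percent of TPM from mitochondrially encoded genes in UT, E and EA for 7 lines, with Y821F as the red diamond, at 17.4% in EA against 12.9 to 14.4% in the 6 lines. Right, median log2 change from E to EA in 10 bins of genes by GC content for each line. Y821F runs from positive in the bins of low GC to negative in those of high GC, as do WT, Y634F and Y643F over a smaller span.

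The mitochondrial genome encodes subunits of the respiratory chain. All 13 of its listed genes were tested, 12 had a change above that of all 6 lines (92.3%, beside 16.8% of all genes) and 1 below, and 9 had an unadjusted p under 0.05 in the upward direction (3.97% of all genes). Their median change from E to EA was 0.45 in Y821F and -0.04 to 0.28 in the 6 lines, and the median difference of 0.38 was 0.196 with quantile normalization. MT-ND4L, a subunit of complex I, was 31057 TPM in UT, 28403 in E and 47611 in EA in Y821F. The 6 lines had a lowest, median and highest value of 26221, 32099 and 36954 TPM in UT, 26828, 29646 and 34022 in E and 29278, 31154 and 35886 in EA. Only the EA library of Y821F lay outside their range. Its change was 0.75, where the 6 lines had -0.08 to 0.40 (difference 0.62 ± 0.19, adjusted p = 0.336). With quantile normalization the difference was 0, which that method fixes in advance, since MT-ND4L was the highest gene of every library. MT-ATP8, a subunit of ATP synthase, had the largest difference of the list, 0.76 ± 0.24. Of the cytosolic ribosomal proteins, 24 of 33 had a lower change than the 6 lines, with a median difference of -0.14, and 20 lay below their range (60.6%, beside 23.9%). With quantile normalization that median was -0.02, and with mitochondrial genes left out -0.07. RPL8 had a difference of -0.43 ± 0.15, and RPS27, on the other side, 1.62 ± 0.82.

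Keratins form the filaments of epithelial cells. Of 11 tested, 10 had a lower change than the 6 lines and 8 lay below their range (23.9% of all genes), with a median of -0.18 that was -0.01 after the trend with GC was removed. KRT6A, a keratin of stressed and proliferating epithelium, was 44.3 TPM in UT, 6.04 in E and 4.95 in EA in Y821F, where the 6 lines ranged from 31.9 to 50.6 TPM in UT, 3.10 to 8.61 in E and 4.55 to 12.6 in EA. Its change was -0.24 while each of the 6 lines had a positive one (0.28 to 0.72), a difference of -0.76 ± 0.20 (adjusted p = 0.319). KRT13 had -0.65 ± 0.17. The p53 targets had the lowest median of the lists, -0.22, with 9 of 11 below 0 and 6 below the range, and a median of -0.14 with quantile normalization. BBC3, which encodes the apoptosis inducer PUMA, had -0.61 ± 0.29.

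The YAP and TAZ targets, which had higher erlotinib changes, had a median difference of -0.05 for AF154, with 8 above and 14 below 0, and the median turned to 0.02 after the trend with GC was removed. TGFB2, a ligand of the TGF-beta receptors, was 19.5 TPM in UT, 109.8 in E and 160.2 in EA in Y821F. In the 6 lines the lowest, median and highest values were 22.1, 23.2 and 31.1 TPM in UT, 111, 119 and 129.6 in E and 106, 117 and 139 in EA. Y821F lay below all 6 in UT and E and above all 6 in EA, and the change of 0.54 compared with -0.17 to 0.14 (difference 0.54 ± 0.14, adjusted p = 0.317). ARHGEF17 had a change of -0.45 against -0.15 to 0.15 and ANKRD1 of 0.43 against -0.27 to 0.20. For both, the sign was the opposite of the difference in the erlotinib change, and the 2 changes share the E library. TYRO3, the TAM relative of AXL, had -0.52 against -0.22 to 0.33. The 21 tested docking partners had a median of -0.05, with 10 above and 11 below 0, and this median turned to 0.07 after the trend with GC was removed.

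The gene nearest to the threshold was ADGRL1, an adhesion G protein-coupled receptor (latrophilin 1), named after its values were seen. It was 27.7 TPM in UT, 24.2 in E and 11.97 in EA in Y821F. The lowest, median and highest of the 6 lines were 25.9, 30.7 and 35.6 TPM in UT, 13.4, 16.8 and 18.7 in E and 16.7, 20.1 and 23.4 in EA. Y821F lay among the 6 lines in UT, above all in E and below all in EA, and its change from E to EA was -0.96 while theirs were all positive, from 0.01 to 0.32. The difference of -1.21 ± 0.14 had an adjusted p of 0.135, which came to 0.040 when only genes with at least 10 TPM in every one of the 21 libraries were tested.

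The change from UT to EA leaves out the E library, and shares the UT library with the erlotinib change and the EA library with the AF154 change. No gene passed the test (0% called; smallest adjusted p 0.49), 837 had an unadjusted p under 0.05 (9.21%; 266 higher, 2.93%, and 571 lower, 6.29%), and 1535 lay above (16.9%) and 2040 below the 6 lines (22.5%), in all 3575 (39.4%). Leaving mitochondrial genes out turned this split to 2132 above and 1500 below. Genes above the range had a median GC content of 44.97% and those below it 57.7%, beside 50.6% of all genes. The Spearman correlation of this change with GC content was -0.143 in Y821F and -0.097 to 0.169 in the 6 lines. The part of GC content here was not tested. Cholesterol and fatty acid synthesis again had the lowest median, -0.38, with 24 of 26 below 0 (51.6% of all genes), 11 lower with an unadjusted p under 0.05 and 20 below the range of the 6 lines (76.9%, beside 22.5%). The median change was -0.47 in Y821F and -0.28 to 0.16 in the 6 lines.

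FDFT1 was 98.2 TPM in UT, 86.4 in E and 68.7 in EA in Y821F, and the lowest, median and highest of the 6 lines were 63.7, 77.8 and 81.7 TPM in UT, 83.5, 87.9 and 102 in E and 76.1, 92.1 and 104 in EA. It was above all 6 lines in UT, among them in E and below all 6 in EA. Its change of -0.51 had the opposite sign to the 0.20 to 0.34 of the 6 lines (difference -0.77 ± 0.12, adjusted p = 0.490). MVD, which makes isopentenyl diphosphate, had a change of -0.45 against 0.13 to 0.69. DNA replication genes had a median difference of -0.27, 26 of 30 below 0 and 16 below the range. MCM10, an initiation factor, had the largest difference among them at -1.10 ± 0.33, and E2F1, which drives S phase genes, had -0.82 ± 0.20. Neither reached 10 TPM in every one of the 21 libraries. Under alternatives their differences were -1.31 to -0.76 and -0.93 to -0.61. In amino acid supply, PHGDH, the first enzyme of serine synthesis, had a change of -2.03 against -1.50 to -0.78.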

How the data were processed

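Polyadenylated RNA of 10 PC9 lines was sequenced, with 1 library per line and treatment and 29 libraries in all. The authors deposited TPM values for each transcript. Per the labels' processing notes the tool was kallisto and the build GRCh38. Version, annotation and strand handling are not given in the sources used here. TPM keeps no depth, so the counting error of a value is not known and the spread between lines is the measure of error.

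Of 188753 transcripts, 169797 were matched by identifier to GENCODE release 29 and summed to 35579 genes. They held 97.0 to 97.4% of the TPM of a library. The 9085 genes whose mean over all 29 libraries reached 10 TPM were analysed as log2(TPM + 1) with limma 3.58.1 in R 4.3.3 and Benjamini-Hochberg adjustment at 0.05. The level was fitted on 21 libraries with treatment as a block and the line as a random block (consensus correlation 0.138). Each change was fitted on 7 within-line differences, so that libraries of a line were paired as the same cells. Scripts were tested on simulated data. Tables were made with pandas 2.3.3, scipy 1.17.1 and numpy 2.4.6, and plots with matplotlib 3.10.9, all under Python 3.11.15.

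The comparison and the 29 gene lists were chosen with earlier results of these data known. Named genes were AXL, then genes past the threshold and outside the range of the 6 lines (at most 12 each way for the level and 6 each way for a change), then, from the lists described, up to 4 members past the threshold or, with none, the 2 with the largest difference. All others were named after their values were seen, as said there or, for TYMS, MCM5, TXNRD1 and EGFR in the level, CDC45, LATS2 and ITGB1 in the erlotinib change, and ANKRD1 in the AF154 change, here. Alternatives were a pseudocount of 0.1, a mean of 1 TPM or more, at least 10 TPM in each of the 21 libraries, centred medians, quantile normalization, mitochondrial genes left out, other blocks, a test against a log2 difference of 0.5, other comparison lines, each line or Y821F library left out, and, added after the data were seen, the trend with GC content removed. Some list members are counted but not reported by name here.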

Additional observations from a re-analysis of the deposited data

Results flagged for a closer look

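Over 99 values that each had 1 measurement per line, the 7 lines were searched for a line whose gap to its nearest neighbour in relation to the whole range exceeded Dixon's 95% critical value. Chance gives this in about 1 of 20 such values. It occurred in 6, and the line apart was Y821F in 4 and WT in 2.

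The mitochondrial share of TPM in EA was 17.4% in Y821F, with the next line at 14.4% and the lowest at 12.9%. The median erlotinib change of the hypoxia and glycolysis genes was -0.58 in Y821F, and the other lines lay between -0.51 and -0.47. The median change from E to EA of the NRF2 and antioxidant genes was -0.023 in Y821F, and 0.04 to 0.08 in the others. That of the unfolded protein response genes was -0.11 in Y821F, and 0.01 to 0.08 in the others. The last 2 rest on the EA library of Y821F, whose mitochondrial share stands apart. The rank correlation of the AF154 change with GC content was lowest in Y821F, at -0.559. WT was near it at -0.487 and Y634F at -0.451, and this value was not flagged. For the NRF2 and antioxidant genes, the median difference from the other lines in the change from E to EA was -0.064. It was 0.0068 with quantile normalization and -0.084 with the GC trend removed, and kept its sign in 12 of 14 alternatives. For the unfolded protein response genes it was -0.14, and -0.061 with the GC trend removed, with the sign kept in 14 of 14. The part of the mitochondrial share and of GC content in the flagged values was not tested.

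WT stood apart with a median erlotinib change of the interferon-stimulated genes of 0.27, under the 0.54 to 0.73 of the other lines, and with a median AF154 change of the BCL2 family and apoptosis genes of 0.086, over the -0.12 to -0.04 of the others.

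ITGB1P1 was not among these values, since it had been picked for its erlotinib change. That change was -2.04 on the log2 scale in Y821F, with the 6 lines between -0.09 and 0.37, and the difference of -2.20 is listed here because it passed limma's test.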

How the results depend on the processing

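Gene counts at an adjusted p under 0.05 were small throughout, and 57 of 64 counts recomputed under alternatives stayed within 1.5 times the first value. For the level, 0 genes became 1 without line WT (ENSG00000268750) and 1 without line Y643F (PSCA), so that leaving out a line or a Y821F library gave 0 to 1. For the erlotinib change, 1 gene (ITGB1P1) became 2 with a mean of at least 1 TPM (with ENSG00000275339) and 2 with KD, KO and PAR added (with GNL1), and leaving out a line gave 1 to 1, each time ITGB1P1. For the AF154 change, 0 became 1 with at least 10 TPM in every one of the 21 libraries (ADGRL1, -1.21), 1 without Y643F (RPL22P1, a pseudogene) and 1 without Y750F (ADGRL1, -1.25), so that leaving out a line gave 0 to 1. The change from UT to EA had 0 throughout. Level genes with an unadjusted p under 0.05 numbered 256 without the EA library of Y821F, 910 without its UT library, 803 without Y643F and 804 with libraries taken as independent, beside 487, and genes below the 6 lines in each treatment numbered 40 with quantile normalization, 17 with KD and KO added and 125 without WT, beside 70. Quantile normalization moved the share of those outside the range that lay above it from 30 to 54.02%.

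Values of 2 named genes turned sign. The level difference of AXL was 0.47 against WT alone and 0.15 with KD and KO added, and that of ETV5, -0.30, was 0.11 against WT alone. The erlotinib difference of AXL was -0.011 with medians centred and -0.019 to 0.032 with a line left out (-0.0033 without Y634F and -0.019 without Y643F). Its AF154 difference was 0.054 with the GC trend removed. From UT to EA its difference was 0.0077 with quantile normalization, 0.11 with KD and PAR added and 0.060 with the GC trend removed. KO has no EA library, so it could not enter the changes that use EA. The AF154 difference of MT-ND4L, 0.62, was 0 with quantile normalization, which is fixed in advance for the highest gene of every library. The other 1026 values of named genes kept their sign. The median of cholesterol and fatty acid synthesis ranged from -0.38 to -0.32 for the erlotinib change and from -0.44 to -0.32 from UT to EA, and that of DNA replication in the level from -0.27 to -0.11 and in the erlotinib change from -0.25 to -0.12. The cause of these shifts was not tested. Libraries of a line are the same cells, and each change was taken within a line, so the pairing by line was part of every such result. Depth is not known, so no limit on detection can be given.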
